A study of Mus musculus with 10 samples.

Results

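The constitutive proteasome subunits and activators were the genes with a probe set of a single symbol that starts with Psma, Psmb, Psmc, Psmd or Psme and a digit, without the immunoproteasome subunits Psmb8, Psmb9 and Psmb10. The rule found 41 of 21994 named genes, and 38 of these 41 were among the 13298 genes that passed a filter on low values and were tested. Of the 41, 39 encode subunits, dedicated chaperones or activators of the proteasome. The other two, Psmc3ip and Psme3ip1, carry symbols of proteins named for binding a subunit and were kept because the rule matched them.

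The proteasome is the barrel-shaped protease that degrades proteins tagged with ubiquitin. Its core particle stacks rings of alpha subunits, which form the gate, around rings of beta subunits, of which Psmb5, Psmb6 and Psmb7 carry the catalytic sites. A regulatory particle caps the core: its base holds the Psmc ATPases that unfold the substrate and its lid holds the enzyme that removes ubiquitin, while alternative caps are built from the Psme activators. In dendritic cells (DCs) the proteasome also makes most of the peptides shown on MHC class I, and inflammatory signals can exchange the catalytic subunits for the immunoproteasome subunits.

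The data were 10 arrays of splenic DCs enriched with magnetic beads against CD11c, an integrin of DCs that other spleen cells can also carry. Unstimulated wild-type mice (WT) and mice lacking both receptors for the complement fragments C3a and C5a (C3ar1-/-C5ar1-/-, written DKO here) gave 2 arrays each and had received vehicle. WT and DKO mice given 100 µg CpG, a DNA ligand of the endosomal receptor Tlr9, gave 3 arrays each. Cells of every group were collected 4 h after injection. The sources used here do not give strain, age, sex or whether animals were pooled, and the labels do not say that replicates are separate mice, so p-values measure the spread between these samples. Replicate numbers follow accession order and only name an array. All values are RMA log2 intensities of 1 probe set per gene, and differences are log2 changes with their standard error (SE). A gene was called at a limma adjusted p under 0.05, and a gene is said below to have risen or fallen only where it was called. In these bulk samples, fewer cells of a type and less RNA per cell cannot be told apart.

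Array medians lay between 5.50 and 5.56, and arrays of a group correlated at r = 0.964 to 0.989 across genes. C3ar1 measured 5.27 to 5.64 in the 5 DKO arrays and 5.80 to 6.59 in the 5 WT arrays. C5ar1 measured 4.42 to 4.99 in DKO and 5.51 to 7.32 in WT, so both targeted genes separated the genotypes without overlap, although it is not known whether the probes lie in the deleted parts. Of 8 markers of conventional DCs, 7 were measured, with a mean log2 intensity of 10.81 to 11.31 on all arrays. The neutrophil list (10 markers) averaged 6.93 to 8.64 in WT and 5.42 to 6.97 in DKO arrays. The list of red pulp macrophage markers (10 genes) averaged 9.01 in DKO unstimulated array 2 and 8.77 in DKO CpG array 3, against 10.20 to 10.67 across WT and 10.44 to 10.55 on the remaining DKO arrays. The Y-linked list (3 genes measured) averaged 7.33 to 7.93 in DKO unstimulated array 1 and DKO CpG arrays 1 and 2 and 3.21 to 3.68 in the other arrays. Both DKO arrays with low macrophage markers and WT CpG array 3 are the 3 arrays with titles numbered over 20, which stand in here for a batch because the labels mention a first batch without assigning samples to it.

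After CpG, more proteasome genes had a change above 0 than below it, in both genotypes and by small amounts. In WT, 5 of 38 tested members rose (13.2%; Psma6, Psmc4, Psmd11, Psmd14 and Psme2) against 8.24% of all tested genes, and 0 fell against 13.4%. In DKO, 3 rose (7.9%; Psma6, Psmd8 and Psmd12) against 4.56% of all genes, and 1 fell (2.6%; Psmd5) against 5.76%. With the CpG effect averaged over both genotypes, 10 rose (26.3%) against 11.2% of all genes, and 1 fell (2.6%) against 18.6%. The 10 were Psma2, Psma6, Psmb6, Psmc1, Psmc4, Psmd1, Psmd8, Psmd11, Psmd12 and Psmd14, and the gene that fell was Psmd5. The share of members with a change above 0 was 78.9% in WT, 78.9% in DKO and 81.6% averaged, while the same shares over all tested genes were 44.5%, 44.4% and 44.2%. The median change of the members was 0.17 in WT, 0.12 in DKO and 0.17 averaged, beside -0.04, -0.04 and -0.03 for all tested genes. Member changes ran from -0.37 to 0.50 averaged over genotypes, while changes over all genes ran from -2.70 to 3.89, so the largest member change was small on the scale of the array. Without Psmc3ip and Psme3ip1, which had changes below 0 in both genotypes, the calls were the same and the medians were 0.19 in WT, 0.14 in DKO and 0.17 averaged.

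**Figure D1:**
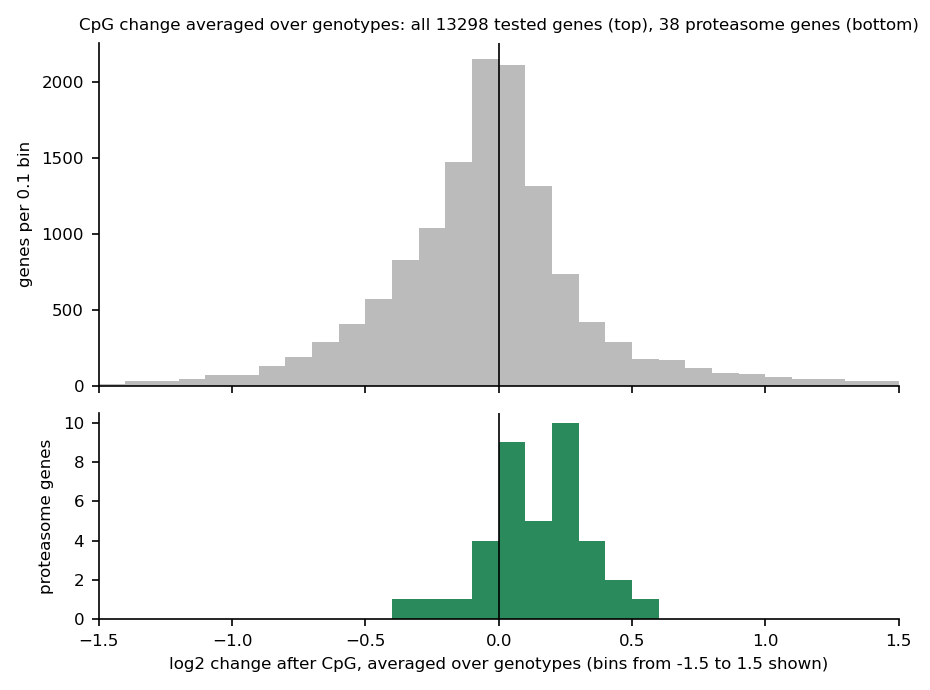
Histogram of the log2 change after CpG averaged over genotypes, in bins of 0.1, for all 13298 tested genes (top) and for the 38 tested proteasome genes (bottom). The proteasome genes lie between -0.37 and 0.50, with 31 of 38 above 0, while 44.2% of all tested genes lie above 0.

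Pooled over genotypes, the CpG and unstimulated arrays overlapped for most members. Within each genotype alone more members separated, and the share of all tested genes that do so was not counted. All 6 CpG arrays lay above all 4 unstimulated arrays for 8 members (21.1%), Psma2, Psma6, Psmc4, Psmd3, Psmd11, Psmd12, Psmd14 and Psme4, against 7.96% of all tested genes. All 6 lay below for 1 member (2.6%), Psmd5, against 12.3%. The CpG changes in WT and DKO, which share no array, had the same sign for 36 of 38 members (94.7%) and for 74.6% of all tested genes. Across the members they correlated at r = 0.664 (Spearman's rho = 0.642, n = 38 genes) and across all tested genes at r = 0.828 (rho = 0.732), as a description only, since genes on the same arrays are not independent. Only Psma6 was called in both genotypes. Of the other called members, 4 were called in WT, 3 in DKO and 4 in the average alone, leaving 26 of 38 called in no contrast. The same split over all tested genes was not counted, so no background stands beside these counts.

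The counts of called members and of called genes over the whole array both depended on single arrays. The median deviation of the members from their own mean was -0.12 in WT unstimulated array 2 and -0.15 in DKO unstimulated array 2, against -0.02 and -0.05 in the other unstimulated arrays and 0.02 to 0.11 in the CpG arrays. Without WT unstimulated array 2 the averaged contrast called 5 members, and without DKO unstimulated array 2 it called 6, against 11 with all arrays, while the calls over all tested genes went from 3963 to 2971 and 3397. In WT, 1 member was called without either WT unstimulated array (1412 and 1276 of all genes, against 2873), 2 without WT CpG array 2 or 3, and 3 without WT CpG array 1. In DKO, 0 were called without DKO unstimulated array 2 (419 of all genes, against 1372), and 1 to 2 without DKO unstimulated array 1, DKO CpG array 1 or 2, or any WT CpG array. Without the 3 arrays titled over 20, the counts were 5 in WT, with Psmb6 and Psmd7 in place of Psmc4 and Psmd11, 0 in DKO and 8 averaged (3231, 1215 and 3960 of all genes), and the median change in DKO was 0.04. The median of the members stayed above 0 in the 3 CpG contrasts under each alternative tried.

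Mean marker levels of conventional DCs, B cells and plasma cells also differed between stimulated and unstimulated arrays without overlap, while those of plasmacytoid DCs overlapped. Conventional DC markers averaged 11.19 to 11.31 in the unstimulated and 10.81 to 11.05 in the CpG arrays (linear intensities summed over the 7 markers 28993 to 30773 and 24304 to 29595), with 1 marker called higher and 4 lower. B cell markers (7 measured) averaged 6.68 to 6.89 and 6.0 to 6.62 (summed 787 to 877 and 461 to 720), with 4 called lower. Plasma cell markers (5 measured) averaged 6.02 to 6.56 and 6.84 to 7.56 (summed 379 to 616 and 893 to 2531), with 1 of 4 tested markers called higher and Tnfrsf17 below the array median on all arrays. Plasmacytoid DC markers (6 measured) averaged 7.45 to 8.32 and 8.06 to 8.48 (summed 1618 to 3311 and 2543 to 4013), with 2 called higher. Plasma cells and plasmacytoid DCs are secretory cells, and the part of these markers in the proteasome changes was not tested.

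**Figure D2:**
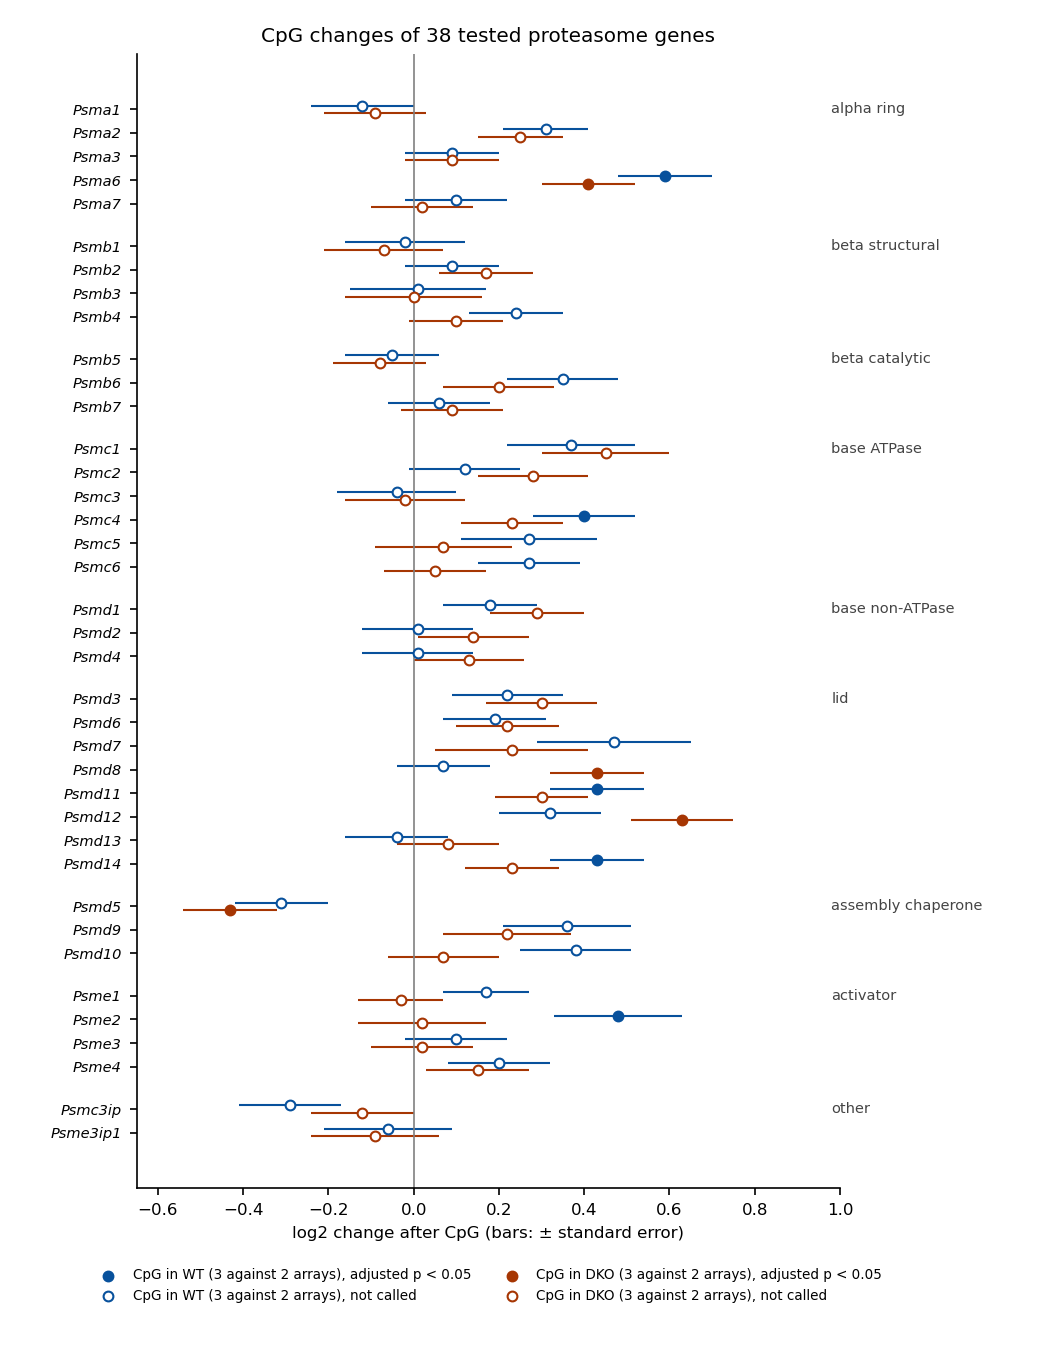
Log2 change after CpG (horizontal axis) of the 38 tested proteasome genes by role in WT (blue) and DKO (red), with bars for the standard error and filled symbols for adjusted p under 0.05. Most points lie to the right of 0, Psma6 is filled in both genotypes, and Psmd5 lies to the left in both.

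Promoter sequence was compared for the members with an entry in the RefSeq promoter table (assembly GRCm38.p6), which held 300-base windows, 250 bases before and 50 after a start site, for 34 of the 41. Both strands were searched for 4 motifs. The antioxidant response element core TGACNNNGC, the kind of site through which Nfe2l1 is known to drive proteasome genes, was in the windows of 6 of 34 members (17.6%; Psmb5, Psmb6, Psmc6, Psmd9, Psmd12 and Psme4) and of 14% of all 27025 genes with a window. It was in 2 of 11 members that rose in a CpG contrast and in 4 of 21 tested members that did not. The interferon-stimulated response element core GAAANNGAAA was in 4 members (11.8%; Psmb3, Psmd4, Psmd9 and Psme1) and 3.99% of all genes. None of those 4 members was called in a CpG contrast, beside 12 of all 38 tested members, and 4 genes are too few to compare. The NF-kB motif GGGANTTTCC was in 0 of 34 members and 0.466% of all genes, and CCAAT was in 15 members (44.1%) and 41.1% of all genes. A match is only a string of letters in this window. The 250 bases before the start site are shown for 3 members with an antioxidant response element core (capitals): Psmd12, the lid gene with the largest rise in DKO, Psmb6, the catalytic subunit that rose, and Psmb5, a catalytic subunit that was not called. They lie at chr11:107479278-107479527 on the plus strand (Psmd12), chr11:70525107-70525356 on the plus strand (Psmb6) and chr14:54617996-54618245 on the minus strand (Psmb5).
Psmd12: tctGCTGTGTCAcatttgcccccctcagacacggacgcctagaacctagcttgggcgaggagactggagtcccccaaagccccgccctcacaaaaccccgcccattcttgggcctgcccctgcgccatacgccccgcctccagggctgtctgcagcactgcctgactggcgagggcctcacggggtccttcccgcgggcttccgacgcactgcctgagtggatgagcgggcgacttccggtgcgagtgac
Psmb6: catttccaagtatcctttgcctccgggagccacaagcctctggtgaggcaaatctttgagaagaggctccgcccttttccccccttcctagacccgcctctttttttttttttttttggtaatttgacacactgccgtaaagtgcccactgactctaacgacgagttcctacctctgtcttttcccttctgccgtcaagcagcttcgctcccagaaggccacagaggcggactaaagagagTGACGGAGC
Psmb5: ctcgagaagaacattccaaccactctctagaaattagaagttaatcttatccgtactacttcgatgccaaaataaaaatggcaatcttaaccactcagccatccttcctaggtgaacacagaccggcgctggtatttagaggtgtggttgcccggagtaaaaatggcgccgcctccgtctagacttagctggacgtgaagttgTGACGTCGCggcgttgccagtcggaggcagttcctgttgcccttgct
The matches span positions -247 to -239 in Psmd12 (on the reverse strand), -9 to -1 in Psmb6 and -47 to -39 in Psmb5, counted from the start site. The motif was thus present both in members that rose and in members that were not called.

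The core particle was represented by 12 tested subunits, of which 3 rose in the averaged contrast and 0 fell, beside 11.2% and 18.6% of all tested genes, with a median change of 0.08. The alpha ring gave 2 of its 5 tested genes, Psma6 and Psma2, the 4 structural beta subunits Psmb1 to Psmb4 gave 0, and the 3 catalytic subunits gave 1, Psmb6. Psma5 was not tested: its 2 probe sets averaged 4.46 and 4.09, below the array medians. Psma4, another alpha subunit, was not among the genes that the rule found. The alpha ring was therefore not fully read out by these probes. Psma8, an alpha subunit of the testis, and Psmb11, the catalytic subunit of the thymus, were also not tested, with values of 5.14 to 5.44 and 4.37 to 4.96.

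Psma6, an alpha ring subunit, gave the largest averaged change of the members. It measured 10.79 and 10.62 in the WT unstimulated arrays, 11.30, 11.30 and 11.29 in the WT CpG arrays, 10.67 and 10.72 in the DKO unstimulated arrays, and 11.11, 11.04 and 11.17 in the DKO CpG arrays. All CpG arrays were above all unstimulated arrays, and the WT CpG arrays were above the DKO CpG arrays. The change was 0.59 ± 0.11 (SE; 1.51-fold) in WT (adjusted p = 0.00357), 0.41 ± 0.11 in DKO (adjusted p = 0.037) and 0.50 ± 0.08 averaged (adjusted p = 0.000757). The WT and averaged calls held under all 16 alternatives, while the DKO call was lost without any 1 of the 8 arrays other than the WT unstimulated arrays (adjusted p = 0.0525 to 0.141), with no filter (0.0644), with repeated normalization (0.0554) and without the 3 arrays titled over 20 (0.152).

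Psma2, also of the alpha ring, measured 10.12 and 10.07 in WT unstimulated, 10.45, 10.39 and 10.38 in WT CpG, 9.98 and 10.05 in DKO unstimulated, and 10.24, 10.26 and 10.31 in DKO CpG arrays. The CpG arrays lay above the unstimulated arrays without overlap. Its averaged change was 0.28 ± 0.07 (adjusted p = 0.0128), while WT alone (0.31, adjusted p = 0.0504) and DKO alone (0.25, adjusted p = 0.148) were not called. Without WT unstimulated array 2 the averaged call was lost at an adjusted p of 0.0508. The other tested alpha subunits, Psma1, Psma3 and Psma7, had averaged changes of -0.11 to 0.09 and the structural beta subunits -0.05 to 0.17. Stimulated and unstimulated arrays of both genotypes together overlapped for each of these genes. Within a genotype, the CpG arrays lay above the unstimulated arrays for Psmb2 in both, for Psmb4 in WT only and for Psma3 in DKO only. Psmb3 measured 5.73 to 6.26, close to the array medians.

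Of the catalytic subunits, Psmb6 was called and Psmb5 and Psmb7 were not. Psmb5, with the chymotrypsin-like site, measured 11 and 10.86 in WT unstimulated, 10.86, 10.92 and 10.88 in WT CpG, 11 and 10.96 in DKO unstimulated, and 10.81, 10.93 and 10.97 in DKO CpG arrays. These ranges overlapped, and the averaged change was -0.06 (95% interval -0.23 to 0.11, adjusted p = 0.603). Psmb7, with the trypsin-like site, measured 10.53 and 10.49, then 10.50, 10.63 and 10.58 in the WT arrays, and 10.66 and 10.41, then 10.50, 10.71 and 10.67 in the DKO arrays. Its averaged change was 0.07 (95% interval -0.12 to 0.26, adjusted p = 0.583), and its groups overlapped too. Both intervals overlapped that of Psmb6 (0.07 to 0.48), and no test compared the catalytic subunits with each other.

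Psmb6, with the caspase-like site, measured 9.27 and 9.07 in WT unstimulated, 9.60, 9.58 and 9.38 in WT CpG, 9.45 and 9.19 in DKO unstimulated, and 9.54, 9.43 and 9.60 in DKO CpG arrays. The WT groups did not overlap, and in DKO the higher unstimulated array lay above the lowest CpG array. The averaged change of 0.28 ± 0.09 was called at an adjusted p of 0.0478. This call was lost without any 1 of 8 arrays, all but WT CpG array 3 and DKO unstimulated array 1 (adjusted p = 0.0513 to 0.175). It was also lost with no filter (0.0762), with repeated normalization (0.0629) and without the 3 arrays titled over 20 (0.143), all adjusted p from limma. Neither genotype alone passed, at 0.35 in WT (adjusted p = 0.0885) and 0.20 in DKO (adjusted p = 0.398).

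Each catalytic subunit was set against the immunoproteasome subunit that replaces it, as the difference of log2 values within an array. Such a difference shows unequal change of a pair and not which protein is more abundant. Psmb9 minus Psmb6 was 2.08 and 2.42 in WT unstimulated, 1.77, 1.62 and 2.15 in WT CpG, 2.22 and 2.41 in DKO unstimulated, and 1.71, 1.56 and 1.77 in DKO CpG arrays. The DKO groups did not overlap, and in WT CpG array 3 lay inside the unstimulated range. The averaged change was -0.52, with a two-sided exact permutation p of 0.02 over 100 relabelings within genotypes (smallest possible 0.01) and 0.06 after adjustment over the 3 pairs, so it did not pass. Leaving out arrays in turn gave -0.60 to -0.43. The change of Psmb8 minus Psmb5 was 0.06 (exact permutation p = 0.45, adjusted 0.45) and that of Psmb10 minus Psmb7 was 0.15 (exact permutation p = 0.33, adjusted 0.45). In the limma fit, Psmb8 (-0.00 averaged, adjusted p = 0.985), Psmb9 (-0.24, adjusted p = 0.104) and Psmb10 (0.23, adjusted p = 0.147) were not called, so the immunoproteasome genes did not show a called rise at 4 h. Psmb10 measured 11.18 and 11.07 in WT unstimulated, 11.54, 11.36 and 11.76 in WT CpG, 11.15 and 11.15 in DKO unstimulated, and 11.32, 10.95 and 11.30 in DKO CpG arrays. Its WT groups did not overlap (0.42 in WT, adjusted p = 0.078) and its DKO groups did.

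**Figure D3:**
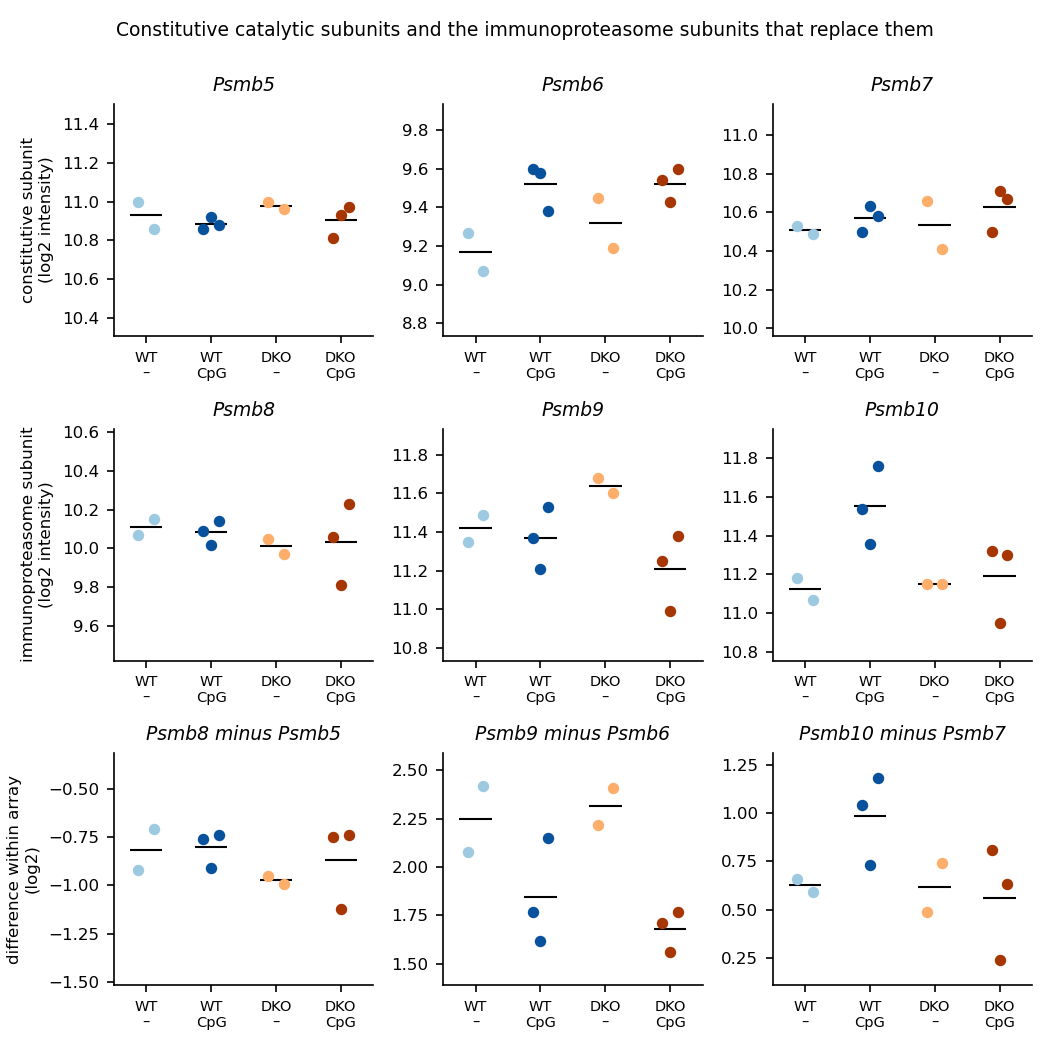
Log2 intensity per array of Psmb5, Psmb6 and Psmb7 (top row), of Psmb8, Psmb9 and Psmb10 (middle row) and their difference within each array (bottom row) in the 4 groups, with lines for group means. In the bottom middle panel the DKO CpG arrays (1.56 to 1.77) lie below the DKO unstimulated arrays (2.22 and 2.41), while WT CpG array 3 (2.15) lies between the WT unstimulated arrays.

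The regulatory particle held most of the calls. Of its 17 tested base and lid subunits, 7 rose in the averaged contrast and 0 fell, beside 11.2% and 18.6% of all tested genes. A change above 0 was seen in 16, with a median of 0.23, beside 0.08 for the core particle and -0.03 for all tested genes. No test compared the particles. The median deviation of these 17 subunits from their own mean was -0.23 in WT unstimulated array 2 and -0.24 in DKO unstimulated array 2. It was -0.02 and -0.08 in the other unstimulated arrays and 0.02 to 0.15 in the CpG arrays. The median of this particle thus leaned on 1 unstimulated array per genotype. For the core particle the deviations in those arrays were -0.11 and -0.14. Among the 6 ATPases of the base, Psmc1 and Psmc4 rose. Psmc1 measured 9.36 and 9.21 in WT unstimulated, 9.51, 9.68 and 9.78 in WT CpG, 9.23 and 9.04 in DKO unstimulated, and 9.70, 9.70 and 9.35 in DKO CpG arrays. DKO CpG array 3 was just below WT unstimulated array 1, and otherwise the CpG arrays were higher. Its averaged change of 0.41 ± 0.10 (adjusted p = 0.013) was lost without WT unstimulated array 2 (adjusted p = 0.0595) or DKO unstimulated array 2 (adjusted p = 0.0519).

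Psmc4 measured 9.52 and 9.38 in WT unstimulated, 9.77, 9.96 and 9.83 in WT CpG, 9.60 and 9.43 in DKO unstimulated, and 9.88, 9.63 and 9.74 in DKO CpG arrays. All CpG arrays were above all unstimulated arrays, with DKO CpG array 2 and DKO unstimulated array 1 the closest pair. The change was 0.40 ± 0.12 in WT (adjusted p = 0.0418) and 0.32 ± 0.09 averaged (adjusted p = 0.0193). The WT call was lost without any 1 of the 5 WT arrays (adjusted p = 0.0614 to 0.243), without the 3 arrays titled over 20 (0.0685), with no filter (0.0686) and with repeated normalization (0.0639). The averaged call was lost without WT unstimulated array 2 (adjusted p = 0.0812), DKO unstimulated array 2 (adjusted p = 0.0722) or the 3 arrays titled over 20 (adjusted p = 0.0957). The remaining ATPases, Psmc2, Psmc3, Psmc5 and Psmc6, had averaged changes of -0.03 to 0.20 and were not called.

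Psmd1, a scaffold of the base, measured 8.66 and 8.58 in WT unstimulated, 8.83, 8.84 and 8.72 in WT CpG, 8.49 and 8.34 in DKO unstimulated, and 8.76, 8.73 and 8.63 in DKO CpG arrays. CpG arrays were higher within each genotype. The averaged change was 0.23 ± 0.08 (adjusted p = 0.0439), and it was lost without any 1 of 7 arrays, all but WT CpG array 3, DKO unstimulated array 1 and DKO CpG array 3 (adjusted p = 0.0788 to 0.139), with no filter (0.0765) and without the 3 arrays titled over 20 (0.101). The other base subunits without ATPase activity, Psmd2 and the ubiquitin receptor Psmd4, each changed by 0.07 and were not called.

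In the lid, 4 of 8 tested subunits rose in the averaged contrast (11.2% of all genes) and all 8 had changes above 0, from 0.02 to 0.47, with a median of 0.29. Psmd12 measured 8.81 and 8.65 in WT unstimulated, 9.07, 9.06 and 9.01 in WT CpG, 8.6 and 8.38 in DKO unstimulated, and 9.27, 9.08 and 9.0 in DKO CpG arrays. Every CpG array exceeded every unstimulated array. The change was 0.63 ± 0.12 in DKO (1.55-fold, adjusted p = 0.0118), the largest of any member within a genotype, and 0.47 ± 0.09 averaged (adjusted p = 0.00251). In WT it was 0.32 (adjusted p = 0.103). The averaged call held under all 16 alternatives, and the DKO call was lost without DKO unstimulated array 2 (adjusted p = 0.0997) or the 3 arrays titled over 20 (adjusted p = 0.0577).

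Psmd14, the metalloprotease of the lid that cuts ubiquitin from substrates, measured 9.28 and 9.14 in WT unstimulated, 9.61, 9.63 and 9.69 in WT CpG, 9.05 and 9.23 in DKO unstimulated, and 9.34, 9.37 and 9.39 in DKO CpG arrays. The CpG arrays were highest in WT, and even the DKO CpG arrays lay above every unstimulated array. The change was 0.43 ± 0.11 in WT (adjusted p = 0.018) and 0.33 ± 0.08 averaged (adjusted p = 0.00883), with 0.23 in DKO (adjusted p = 0.23). The averaged call held under all 16 alternatives. The WT call was lost without WT unstimulated array 1 (adjusted p = 0.0547) or 2 (adjusted p = 0.145) or without WT CpG array 3 (adjusted p = 0.0527).

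Psmd11, a lid subunit that also touches the core, measured 9.33 and 9.21 in WT unstimulated, 9.60, 9.72 and 9.77 in WT CpG, 9.37 and 9.27 in DKO unstimulated, and 9.68, 9.65 and 9.54 in DKO CpG arrays. Stimulated and unstimulated arrays did not overlap. It rose by 0.43 ± 0.11 in WT (adjusted p = 0.0204) and 0.37 ± 0.08 averaged (adjusted p = 0.00575), and had a change of 0.30 in DKO (adjusted p = 0.118). The averaged call held under all 16 alternatives, and the WT call was lost without either WT unstimulated array (adjusted p = 0.0657 and 0.152), WT CpG array 2 (0.0564), WT CpG array 3 (0.0632) or the 3 arrays titled over 20 (0.0526).

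Psmd8, another lid subunit, had the smallest adjusted p of the members for DKO minus WT after CpG. It measured 10.21 and 10.03 in WT unstimulated, 10.14, 10.20 and 10.21 in WT CpG, 10.23 and 10.21 in DKO unstimulated, and 10.56, 10.62 and 10.75 in DKO CpG arrays. Only the DKO CpG arrays stood above the rest, and this held in both title series. The CpG change was 0.43 ± 0.11 in DKO (adjusted p = 0.038), 0.07 in WT (adjusted p = 0.744) and 0.25 ± 0.08 averaged (adjusted p = 0.039). The DKO call was lost without any 1 of the 8 arrays other than the WT unstimulated arrays (adjusted p = 0.053 to 0.155), with no filter (0.0648) and without the 3 arrays titled over 20 (0.2). The averaged call was lost without any 1 of 8 arrays, all but WT unstimulated array 1 and DKO CpG array 1 (adjusted p = 0.0588 to 0.152), with no filter (0.0679), with repeated normalization (0.0707) and without the 3 arrays titled over 20 (0.167). DKO minus WT after CpG was 0.46 ± 0.10 (1.38-fold, 95% interval 0.24 to 0.68, adjusted p = 0.0834), which did not pass, and with the title series as a block the adjusted p was 0.048. The difference of the CpG changes was 0.36 ± 0.16 (adjusted p = 0.871). Psmd8 lies on chromosome 7, as does the targeted gene C5ar1. Of the other tested members on that chromosome, Psmd13 was also higher in all DKO than in all WT CpG arrays, while Psma1 and Psmc4 overlapped. The part of the shared chromosome in the difference of Psmd8 between genotypes was not tested.

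Psmd3 measured 8.28 and 8.20 in WT unstimulated, 8.37, 8.42 and 8.58 in WT CpG, 8.31 and 7.99 in DKO unstimulated, and 8.43, 8.50 and 8.42 in DKO CpG arrays. Its groups did not overlap between stimulated and unstimulated arrays, but the averaged change of 0.26 ± 0.09 missed the threshold (adjusted p = 0.0513). Psmd7, the partner of Psmd14 in the lid, had the widest errors (0.47 ± 0.18 in WT, adjusted p = 0.0907), and its WT CpG arrays (9.96, 10.16 and 9.81) lay above its WT unstimulated arrays (9.67 and 9.35). In DKO, where it measured 9.60 and 9.29, then 9.84, 9.79 and 9.39, the groups overlapped. Psmd6 (0.21 averaged, adjusted p = 0.0866) and Psmd13 (0.02) were not called.

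**Figure D4:**
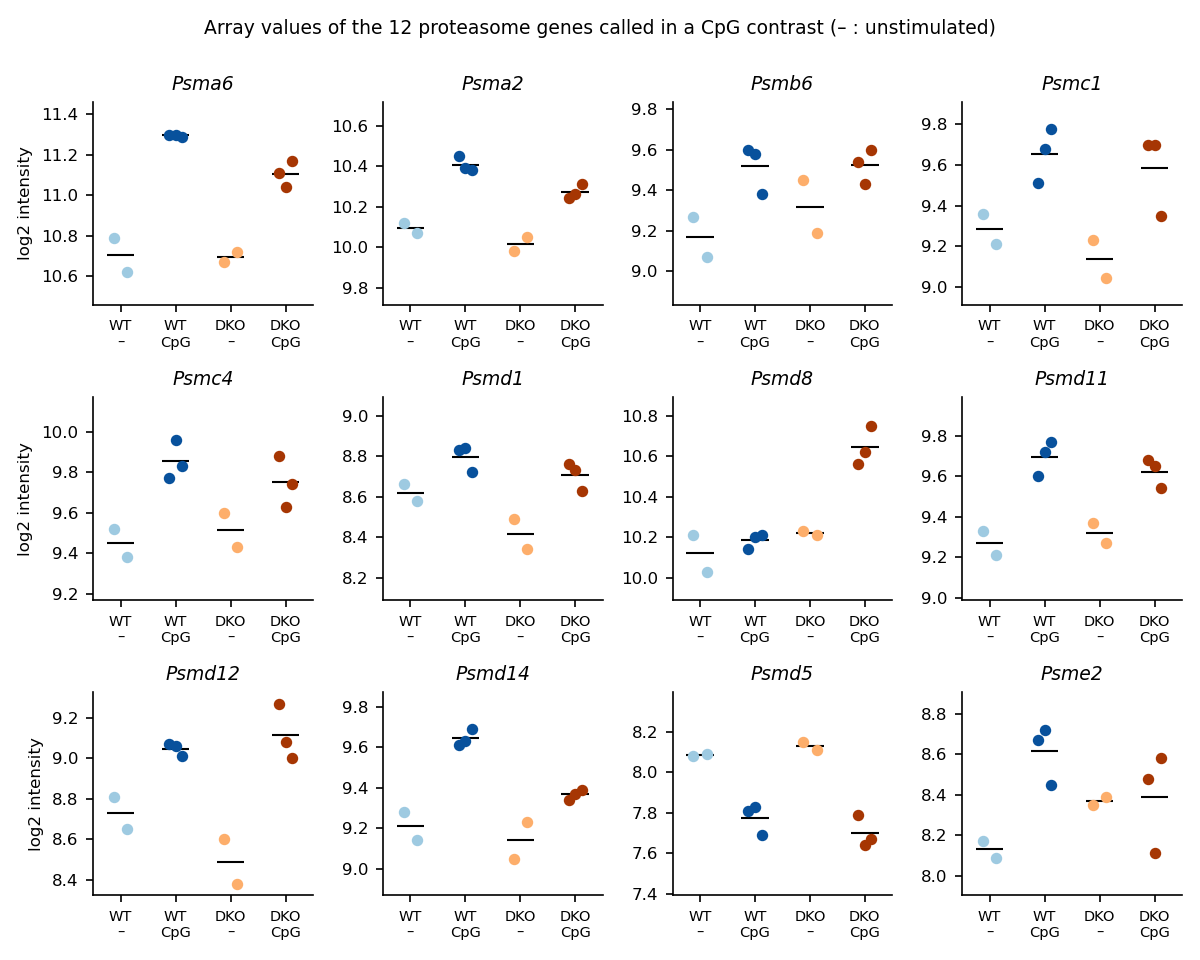
Log2 intensity in each array of the 12 proteasome genes called in a CpG contrast, by group (– for unstimulated), with lines for group means and a separate vertical scale per gene. Psma6 and Psmd12 separate stimulated from unstimulated arrays in both genotypes, Psmd5 does so downwards, Psmd8 is high only in the DKO CpG arrays, and Psme2 is high in the WT CpG arrays with overlap in DKO.

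Of the 3 chaperones that assemble the base, Psmd5 fell after CpG. It measured 8.08 and 8.09 in WT unstimulated, 7.81, 7.83 and 7.69 in WT CpG, 8.15 and 8.11 in DKO unstimulated, and 7.79, 7.64 and 7.67 in DKO CpG arrays. All CpG arrays lay below all unstimulated arrays. The change was -0.43 ± 0.11 in DKO (adjusted p = 0.0314), -0.31 ± 0.11 in WT (adjusted p = 0.0659) and -0.37 ± 0.08 averaged (adjusted p = 0.00438). The averaged call held under all 16 alternatives. The DKO call was lost without either DKO unstimulated array (adjusted p = 0.125 and 0.115), DKO CpG array 2 (0.0855), either WT unstimulated array (0.0502) or WT CpG array 1 (0.0503). It was also lost with no filter (0.0545), with repeated normalization (0.0525) and without the 3 arrays titled over 20 (0.115), as limma adjusted p.

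Psmd10, known as gankyrin, measured 8.86 and 8.69 in WT unstimulated, 9.19, 9.06 and 9.24 in WT CpG, 8.88 and 8.79 in DKO unstimulated, and 9.05, 8.75 and 8.91 in DKO CpG arrays. The WT groups did not overlap and the DKO groups did. Its change of 0.38 ± 0.13 in WT (adjusted p = 0.0532), 0.07 in DKO and 0.23 averaged (adjusted p = 0.0815) was not called. Psmd9, the third of these chaperones, changed by 0.29 averaged (adjusted p = 0.0671) with array values of 6.6 to 7.26, so 2 of the 3 chaperones had changes above 0 without a call.

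The activators showed 1 call in 4, a rise in WT, where 8.24% of all genes were called higher, and 0 in the averaged contrast. Psme2, which with Psme1 forms the activator cap linked to antigen processing, measured 8.17 and 8.09 in WT unstimulated, 8.67, 8.72 and 8.45 in WT CpG, 8.35 and 8.39 in DKO unstimulated, and 8.48, 8.11 and 8.58 in DKO CpG arrays. The WT groups did not overlap, and DKO CpG array 2 was below both DKO unstimulated arrays. Psme2 rose by 0.48 ± 0.15 in WT (1.40-fold, adjusted p = 0.0459) and its change in DKO was 0.02 (95% interval -0.32 to 0.35, adjusted p = 0.963). The difference of the CpG changes was -0.46 ± 0.21 (95% interval -0.94 to 0.01, adjusted p = 0.871), so a difference between the genotypes was not shown. The WT call was lost without any 1 of 7 arrays, all but WT CpG array 3 and DKO CpG arrays 2 and 3 (adjusted p = 0.0543 to 0.218), with the title series as a block (adjusted p = 0.0547) and with no filter (adjusted p = 0.0696).

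Psme1 measured 9.12 and 9.04 in WT unstimulated, 9.29, 9.19 and 9.24 in WT CpG, 9.06 and 9.07 in DKO unstimulated, and 9.02, 9.02 and 9.07 in DKO CpG arrays. The WT CpG arrays were above all other arrays, by a small margin. Its CpG change was 0.17 in WT (adjusted p = 0.302) and -0.03 in DKO. Psme3, which builds a nuclear activator, measured 7.14 and 7.05, then 7.17, 7.27 and 7.14 in the WT arrays, and 7.16 and 7.01, then 7.16, 7.2 and 6.95 in the DKO arrays. The WT groups did not overlap, but the lowest WT CpG array exceeded the higher WT unstimulated array by less than the last printed digit. The DKO groups overlapped, and the averaged change was 0.06 (95% interval -0.13 to 0.25). Psme4, a large activator that works without ATP, measured 8.85 and 8.88 in WT unstimulated, 8.98, 8.97 and 9.25 in WT CpG, 8.78 and 8.93 in DKO unstimulated, and 8.97, 8.98 and 9.07 in DKO CpG arrays. CpG arrays were higher without overlap, but the averaged change of 0.18 was not called (adjusted p = 0.154).

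The 2 receptor deletions changed no member past the threshold in limma. Without stimulation, 0 members were called in either direction, against 0.00% of all genes higher and 0.00752% lower in DKO. The smallest adjusted p of a member was 0.992, and the unadjusted p was under 0.05 for 0 of 38 members and for 616 of all tested genes. After CpG, 0 members were called, against 0.0526% of all genes higher and 0.0677% lower, and the unadjusted p was under 0.05 for 4 members and for 1908 of all tested genes. For the difference of the CpG changes, 0 members were called, against 0.00% higher and 0.00752% lower. An unadjusted p under 0.05 was reached by 1 of the 38 and by 752 of all tested genes. At these sizes the 95% intervals of DKO minus WT had half-widths of 0.25 to 0.43 without stimulation and 0.20 to 0.35 after CpG. These intervals are for 1 gene at a time, and a call adjusted over all genes needed more: Psmd8 after CpG, at 0.46 with a half-width of 0.22, was not called. The median difference was -0.01 without stimulation and -0.06 after CpG, beside 0.01 and 0.02 over all tested genes.

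Without stimulation, Psmd5, Psmd8, Psmd13 and Psme2 were higher in all DKO than in all WT arrays, Psmd8 by less than the last printed digit. Psma2, Psmb2, Psmc2, Psmd1 and Psmd12 were lower there. After CpG, Psmd8 and Psmd13 were higher in all DKO than in all WT arrays. Psma2, Psma6, Psma7, Psmb4, Psmd10, Psmd14 and Psme1 were lower in all DKO than in all WT arrays. Groups of 2 or 3 arrays can separate without any difference between genotypes. The share of all tested genes that separate in this way was not counted, so these members are listed as a description only. For Psmd14 the difference was -0.27 (adjusted p = 0.241), for Psmd10 it was -0.26 (adjusted p = 0.326), for Psma6 -0.19 (adjusted p = 0.395) and for Psme1 -0.20 (adjusted p = 0.343). None of these passed. Neutrophil markers were lower in DKO (6.15 and 5.59 without stimulation and 6.97, 6.76 and 5.42 after CpG, against 7.11 and 7.79, then 8.18, 8.64 and 6.93 in WT), with overlap after CpG. The Y-linked list was high only in 3 of the 5 DKO arrays, and macrophage markers were low only in the other 2. The part of these levels in the differences was not tested.

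Of 23 genes that work with the proteasome, 17 had a probe set of a single symbol and all 17 were tested, with 2 higher, 1 lower and a median change of 0.02 in the averaged contrast, where 11.2% of all genes were called higher and 18.6% lower. The count of higher genes was thus near that background. Those that rose, Nploc4 and Ufd1, encode the cofactors with which the Vcp ATPase extracts ubiquitylated proteins and passes them to the proteasome. Nploc4 measured 9.61 and 9.77 in WT unstimulated, 10.03, 10.08 and 10.08 in WT CpG, 9.70 and 9.49 in DKO unstimulated, and 10.24, 10.13 and 9.86 in DKO CpG arrays. Its CpG arrays lay above its unstimulated arrays. The averaged changes were 0.43 ± 0.10 for Nploc4 (adjusted p = 0.0068) and 0.38 ± 0.09 for Ufd1 (adjusted p = 0.00711), and both held under all 16 alternatives. Vcp itself changed by 0.25 (adjusted p = 0.0813). Psmg1, a chaperone that builds the alpha ring, fell by 0.43 on the log2 scale (adjusted p = 0.0145), a call lost without WT unstimulated array 1 (adjusted p = 0.0674). Pomp, the maturation factor of the core (-0.27, adjusted p = 0.0956), the deubiquitinase Usp14 (0.30, adjusted p = 0.0649) and Nfe2l1, a transcription factor of proteasome genes (0.24, adjusted p = 0.143), were not called. In DKO alone, Nploc4 (0.48, adjusted p = 0.0486), Ufd1 (0.48, adjusted p = 0.0325) and Psmg1 (-0.56, adjusted p = 0.0498) were called, and each of these was lost without DKO unstimulated array 2 (adjusted p = 0.26, 0.106 and 0.146) and with no filter (adjusted p = 0.0765, 0.0525 and 0.0743), among other alternatives. Of all tested genes, 4.56% were called higher and 5.76% lower in DKO. In WT alone, 0 of the 17 were called, beside 8.24% of all tested genes higher and 13.4% lower. The unadjusted p in WT was under 0.05 for 5 of the 17 and for 4342 of the 13298 tested genes.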

How the data were processed

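RNA from 10 DC samples was hybridised to whole-transcript arrays for mouse (Affymetrix Mouse Gene 2.0 ST), 1 per sample. The authors deposited log2 intensities for each probe set, which RMA produced within Expression Console per the submitters' processing notes. The sources used here give neither versions nor a build. RMA removes background and equalises the distributions of the arrays, so a change shared by most genes cannot be seen. Of 41345 probe sets, 23521 had 1 symbol, and the brightest such probe set stood for each of 21994 genes. Genes above the array median in at least 2 of 10 arrays (13298) were tested with limma 3.58.1 in R 4.3.3: 4 group means, eBayes with 6 residual and 4.49 prior degrees of freedom, two-sided tests, Benjamini-Hochberg over all tested genes within a contrast. The replicate number limits the precision, and intervals are 95%.

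Array values are given for the catalytic subunits, the activators and the 12 other members with the smallest p in any contrast. The members, lists and tests were chosen with earlier results of these data known. Genes of the related list are named by role, chosen after their values were seen. Pairs of subunits were tested by exact permutation. Promoter windows are RefSeq's (GRCm38.p6). The fit was tested on simulated data in which 200 of 13298 genes were changed. Of 2-fold changes it recovered 77% for CpG in WT and 81.5% for CpG in DKO. Of 1.5-fold changes it recovered 0% and 12%, and of 1.25-fold changes 0% in both. The CpG contrasts of the data held more called genes than the simulation changed, so these shares do not carry over to them. For DKO minus WT, the fit recovered 71.5% of 2-fold changes without stimulation and 78.5% after CpG. Of 1.5-fold changes it recovered 0% and 39% there, and of 1.25-fold changes 0% in both. Alternatives were no filter, the mean of all probe sets of a gene, repeated quantile normalization, eBayes with trend and robust, the title series as a block, leaving out the 3 arrays titled over 20, and leaving out each array.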

Additional observations from a re-analysis of the deposited data

How the results depend on the processing

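No result reversed its direction in a called contrast under any alternative. Counts of called members moved by over 1.5 times under some alternatives. For CpG in WT (5), the count was 3 with no filter and ran from 1 to 6 leaving out each array. For CpG in DKO (4), it was 1 with no filter, 2 with repeated quantile normalization and 0 without the 3 arrays titled over 20. Leaving out each array gave 0 to 3 in DKO and 5 to 11 for the averaged contrast (11). These ranges also hold counts that moved by less. For DKO minus WT after CpG (0), the title series as a block gave 1 member, Psmd8, while the calls over all genes went from 16 to 294; eBayes with trend and robust gave 78 over all genes and 0 members. For the difference of the CpG changes and for DKO minus WT without stimulation, each alternative gave 0 members. The pairs gave changes leaving out each array of -0.60 to -0.43 (Psmb9 minus Psmb6), 0.01 to 0.12 (Psmb8 minus Psmb5) and 0.09 to 0.24 (Psmb10 minus Psmb7). None passed, but with the 40 or 60 relabelings left then, or 18 without the 3 arrays, a lone pair could not get under the threshold, so this says nothing about stability. Of 26 called results on single genes, including the related list, 15 were called with no filter, 26 with the mean of probe sets, 19 with repeated normalization, 26 with trend and robust, 25 with the block and 14 without the 3 arrays. The cause of these losses was not tested, apart from the smaller number of arrays or larger number of genes that a setting itself brings. No paired analysis was possible because the replicate numbers follow accession order and the labels pair no samples.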
